A study of Mus musculus with 132 samples.

Results

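The Dppa genes (developmental pluripotency associated) of the mouse preimplantation embryo were taken as the rows named Dppa1, Dppa2, Dppa3, Dppa4 and Dppa5a. These are 5 of the 32245 rows of the gene table and all of its rows whose symbol starts with Dppa. The name groups genes by where they are expressed, not by descent: the members do different things in the cell.

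They were followed in all 132 cells of the series, which fall into 4 groups. The 8-cell stage has 30 control and 24 mimic cells, and the 32-cell stage has 39 of each. All embryos had a C57BL/6 x DBA F1 mother, which was superovulated, and a father of the same F1 cross, and were flushed at the 2-cell stage (E1.5). They were then cultured in droplets that held either a mimic of the microRNA miR-381-3p or a scrambled control mimic, up to E2.5, the 8-cell stage, or E3.5, the 32-cell stage. Each group pooled the cells of 3 to 5 embryos, picked by glass capillary and sequenced by Smart-seq2, a full-length method for polyadenylated RNA.

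The labels give a final mimic concentration of 5 or 10 µM and do not tie a concentration or an embryo to a cell. The study's text names the 10 µM dose for the 8-cell and the 5 µM dose for the 32-cell embryos, and the control mimic was used at the matching dose, so stage and dose cannot be told apart in either treatment. Because cells of 1 group share embryos that cannot be separated, each group counts as 1 sample. No test between groups was possible, and every difference is a description.

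DPPA2 and DPPA4 are a pair of small nuclear proteins with a SAP DNA-binding domain that act together on chromatin and are known as activators of the genes of the zygotic genome activation program. DPPA3 (Stella, PGC7) is supplied by the oocyte, accumulates in early embryos and germ cells, and protects DNA from changes in methylation, in part by holding the methylation cofactor UHRF1. DPPA5A (ESG1) is a KH-type RNA-binding protein used as a marker of pluripotent stem cells. Dppa1 is the least characterised of the genes. The 32-cell embryo is where the first lineages separate, into the inner cell mass (ICM), which gives the embryo proper, and the trophectoderm (TE), the outer layer that forms the placenta.

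The members lie on 4 autosomes. In GENCODE M21 on GRCm38, Dppa4 (chr16:48283733-48294237) and Dppa2 (chr16:48303908-48319723) are neighbours on the plus strand with 9.67 kb between them. Dppa3 (chr6:122626410-122630272, plus strand) lies between Gdf3, 16.3 kb upstream, and Nanog, 77.2 kb downstream, both of them genes of pluripotent cells. Dppa5a (chr9:78367052-78368177) and Dppa1 (chr11:46607772-46629261) are on the minus strand. Their longest annotated transcripts have 3 exons and 619 bases (Dppa5a), 4 exons and 833 bases (Dppa3), 7 exons and 1479 bases (Dppa4), 7 exons and 1575 bases (Dppa1) and 8 exons and 2447 bases (Dppa2).

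The microRNA is shown because a mimic acts through its seed, bases 2 to 8 from the 5′ end, which pair with messenger RNAs. The mature mouse sequence in RefSeq (GRCm38.p6, chr12:109726870-109726891, plus strand) is given with the seed in capitals.
mmu-miR-381-3p: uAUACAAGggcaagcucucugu
The site that pairs with the whole seed is CTTGTAT. None of the 10 annotated transcripts of the 5 members held it, on the transcript's own strand and over its whole length. Among genes whose longest transcript is protein coding, 16.1% of 18342 held the site, and 6.53% of the 7169 with a transcript of the members' lengths (619 to 2447 bases) did. The search covers these letters only and says nothing of pairing of another kind.

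Levels are counts per 1000000 counts (CPM), with the 13 mitochondrial genes left out of the total. A group's level is its pooled CPM: the counts of its cells summed, then divided by the sum of their totals, with an exact Poisson 95% interval. Reads here carry no molecular identifiers, so these intervals cover counting error only, not the spread between cells or embryos. Total counts ranged from 544866 to 3461022 per cell, and 3243 to 8983 genes had a count. Within a group, a member's level and a cell's total count had a Spearman correlation between -0.25 and 0.31 (24 to 39 cells of 1 group, which share embryos). At the 32-cell stage all 39 control cells had more counts of Y-linked genes than of Xist, whereas 37 mimic cells had Xist and no Y-linked count and 2 had both. Treatment and this split cannot be told apart at that stage. Of 8 cumulus and granulosa cell markers, Fshr, Inha, Lhcgr and Hsd3b1 were at 0 in all groups. The only 1 at 20 CPM in any group was Amhr2, at 105.6 and 46.5 CPM in 8-cell control and mimic cells. The summed level of these markers ranged over cells from 0 to 339 CPM in 8-cell control, 154.7 in 8-cell mimic, 98.5 in 32-cell control and 107.1 in 32-cell mimic cells, and their part in the results was not tested.

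Set per kilobase of the longest transcript, so that genes could be compared with each other, Dppa3 was the most abundant member in every group. It stood first of 31411 genes at the 8-cell stage, at 6873 CPM per kb in control and 6278 in mimic cells, and second at the 32-cell stage, at 2744 and 3574 CPM per kb. Dppa5a came next, at rank 14 and 19 in 8-cell control and mimic cells (1535 and 1128 CPM per kb) and rank 3 and 5 at the 32-cell stage (2609 and 2033 CPM per kb). Dppa2 and Dppa4 were lower still. Dppa2 had 437, 347, 245 and 213 CPM per kb in 8-cell control, 8-cell mimic, 32-cell control and 32-cell mimic cells, and Dppa4 had 351, 246, 161.1 and 130.5. Dppa1 had no counts at the 8-cell stage and 299 and 206 CPM per kb in 32-cell control and mimic cells, above Dppa2 and Dppa4 in control cells. The per-length values rest on 1 transcript per gene and ignore which isoform the cells used.

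Dppa2, a partner of the chromatin pair, was detected in every cell of every group. In 8-cell control cells its CPM ranged from 595 to 1631 with a median of 996, and in 8-cell mimic cells from 276 to 1292 with a median of 880. In 32-cell control cells it ranged from 151.7 to 1191 (median 629), and in 32-cell mimic cells from 120.7 to 1077 (median 455). The groups followed the order of the pooled levels, 1070, 850, 599 and 520 CPM, and the cells of each group overlapped with those of the next.

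Dppa4, its partner, was also detected in every cell and at a lower level. Single cells ranged from 295 to 834 CPM (median 491) in 8-cell control, from 116.98 to 628 (median 353) in 8-cell mimic, from 88.02 to 506 (median 225) in 32-cell control and from 66.4 to 393 (median 170.4) in 32-cell mimic embryos. The pooled levels were 519, 363, 238 and 193 CPM, in the same order of groups as Dppa2. Neighbouring groups overlapped here too. Within each group, cells with more Dppa2 tended to have more Dppa4, with a Pearson correlation of log2(CPM + 1) of 0.41 and 0.37 in 8-cell control (30 cells) and mimic (24 cells), and 0.28 and 0.24 at the 32-cell stage (39 cells each). Dppa2 had a higher Pearson correlation with Dppa3 than with Dppa4 in all groups but 8-cell control. It was 0.49, 0.31 and 0.48 in 8-cell mimic, 32-cell control and 32-cell mimic cells. The Spearman correlation had the reverse order in 32-cell control cells, 0.30 with Dppa3 and 0.35 with Dppa4. Within the lineage classes described further on, the Pearson correlation of Dppa2 with Dppa4 ranged from -0.40 in 14 TE-like control cells to 0.41 in 12 ICM-like mimic cells. Cells of a group share embryos and library preparation, so these values describe the cells measured.

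Dppa3, the maternal methylation-protecting factor, was the highest member in CPM as well. Its level ranged from 4350 to 7045 CPM (median 5692) in 8-cell control cells, from 2774 to 9358 (median 5088) in 8-cell mimic cells, from 1154 to 4137 (median 2194) in 32-cell control cells and from 1376 to 7233 (median 2670) in 32-cell mimic cells. All 39 control cells of the 32-cell stage lay below all 30 control cells of the 8-cell stage. With mimic, 21 of 39 cells lay below the lowest 8-cell cell and the ranges overlapped. The share of all genes whose cells separate fully between the stages was not determined. In 8-cell control cells Dppa3 was also very even. Its coefficient of variation was 0.14, against a median of 0.44 over the 1209 genes at 200 CPM or more in that group, and 0.08% of those genes varied less. It was 0.30 in 8-cell mimic cells (10.6% of 1164 genes varied less), 0.28 in 32-cell control cells and 0.40 in 32-cell mimic cells. The genes set beside Dppa3 were not matched to it for level, which was 5725 CPM pooled in 8-cell control cells.

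Dppa5a, the RNA-binding protein gene, went in the other direction with stage. Cells ranged from 548 to 1433 CPM (median 923) in 8-cell control, from 347 to 1821 (median 591) in 8-cell mimic, from 819 to 2458 (median 1583) in 32-cell control and from 631 to 2199 (median 1167) in 32-cell mimic embryos. Its lowest group was the 8-cell mimic cells, where its coefficient of variation was 0.53, against 0.25, 0.24 and 0.27 in 8-cell control, 32-cell control and 32-cell mimic cells. The highest 8-cell mimic cell stood apart at 1821 CPM, and the same cell had the highest Dppa3 of its group, 9358 CPM. Across cells, Dppa3 and Dppa5a had a Pearson correlation of 0.45, 0.60, 0.32 and 0.47 in 8-cell control, 8-cell mimic, 32-cell control and 32-cell mimic cells. Their Spearman correlation, which weighs single cells less, was 0.50, 0.45, 0.34 and 0.39.

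Dppa1 was the member with no counts at one stage. It had 0 counts in every 8-cell cell. A floor of 3 counts over the group, the one-sided limit of a count of 0, corresponds to 0.0817 CPM in pooled control and 0.0971 CPM in pooled mimic cells, and the upper ends of the two-sided Poisson intervals are 0.1004 and 0.1193 CPM. In 32-cell control cells it ranged from 0 to 1877 CPM with a median of 180.3, and in 32-cell mimic cells from 0 to 1283 with a median of 196. It had a count in 38 of 39 cells of each 32-cell group (97.4%, exact binomial interval 86.5 to 99.9, for counting error only and not the embryos that cells share). The long tail gave a coefficient of variation of 1.05 in control and 0.96 in mimic cells, higher than 99.3% and 99.2% of the genes at 200 CPM or more.

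**Figure D1:**
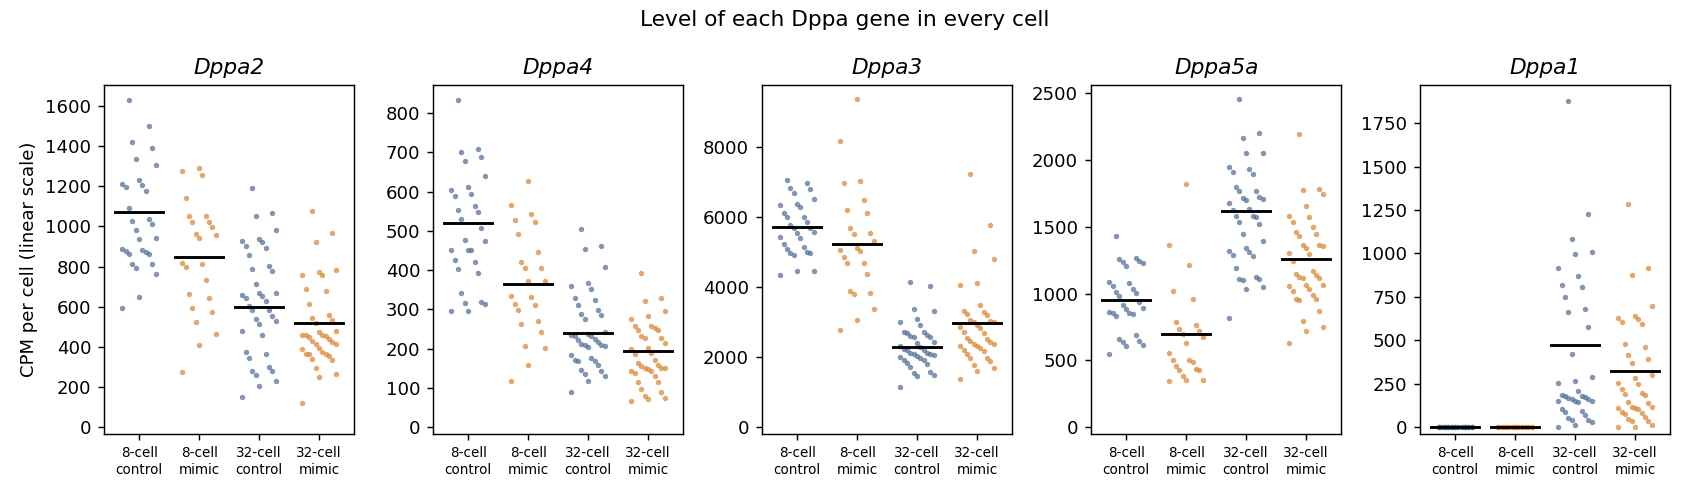
CPM of the 5 Dppa genes (vertical axis, linear, 1 panel a gene) in every cell of the 4 groups (horizontal axis); each point is a cell and each black line is the group's pooled CPM, with control in blue and mimic in orange. Dppa3 of 32-cell control cells (1154 to 4137) lies below that of 8-cell control cells (4350 to 7045), and Dppa1 is at 0 in both 8-cell groups.

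Some reads of these genes could have been assigned to other places. Stretches of 40 bases were compared between the members' transcripts and all other GENCODE M21 transcripts. Dppa2 shared 28.9% of the stretches of its longest transcript with the pseudogene Gm9788, Dppa4 shared 28.3% with Gm14058, Dppa3 shared 24.6% with Dppa3-ps, and Dppa5a shared 16.7% with Gm15310, 16.6% with Gm6083, 16.03% with Gm6798 and 14.5% with each of Dppa5b and Dppa5c. Only Gm12171, Rorb and Pigp among the genes that shared a stretch had a row in the table. Pigp, a subunit gene of the enzyme that starts GPI anchors, shared 16.7% of the stretches of Dppa5a and had 77.5, 66.8, 135.8 and 153.1 CPM in 8-cell control, 8-cell mimic, 32-cell control and 32-cell mimic cells. Gm12171, a lincRNA, shared 8.40% with Dppa1, was at 0 in both 8-cell groups and had 11.0 and 6.03 CPM at the 32-cell stage. Rorb was at 0 throughout. Levels of the members are uncertain to the extent that the quantification split such reads.

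The first comparison asks how the Dppa genes differ between the 8-cell and 32-cell stages, where a gene counts as past 2-fold when the log2 change of pooled CPM + 1 is 1 or more in either direction and at least 1 group has 20 CPM. In control embryos 3 of 5 members were past 2-fold. Dppa1 was at least 5759-fold higher at the 32-cell stage, against the floor of 3 counts over the whole 8-cell group. Dppa3 was 2.504-fold and Dppa4 2.18-fold lower. Dppa2 was 1.79-fold lower and Dppa5a 1.70-fold higher, within the limit, but Dppa2 passed it (log2 -1.06) without the run of 15 32-cell control cells, where a run means consecutive cell numbers in the sample titles, which are not said to be a batch, and is named by its number of cells. The background was large: of 7469 genes at 20 CPM, 30% were past 2-fold higher and 20.1% past 2-fold lower at the 32-cell stage. The median log2 change was -0.84 over the members and 0.20 over all genes.

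In mimic-treated embryos the members took the same directions, and Dppa1 alone was past 2-fold, at least 3338-fold higher, against a background of 29.1% higher and 18.8% lower among 7594 genes. Dppa3 was 1.76-fold, Dppa2 1.63-fold and Dppa4 1.88-fold lower, and Dppa5a was 1.80-fold higher. The members' median log2 change was -0.71, and that of all genes was 0.20. The number of members past the limit varied with the cells used. Without the run of 18 mimic cells Dppa5a passed (log2 1.01), and without the run of 12 mimic cells Dppa3 did (log2 -1.04). Against the 3 8-cell mimic cells with Xist alone Dppa4 (log2 -1.005) and Dppa5a (1.37) passed, and against the 8 with Y-linked counts above Xist Dppa5a did (1.06).

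Cell by cell, the stage difference was cleanest in Dppa3 of the control embryos, where no pair of cells reversed it. A 32-cell control cell was the higher one in 6.92% of pairs for Dppa4, 13.7% for Dppa2 and 92.8% for Dppa5a. In mimic cells the shares were 9.51% for Dppa3, 12.6% for Dppa4, 16.7% for Dppa2 and 87.9% for Dppa5a. The 8-cell groups were mixed for Xist and Y-linked counts, so the control difference was also set against 8-cell cells of the type that the 32-cell control cells had. Against the 7 8-cell control cells with Y-linked counts above Xist, the log2 change of Dppa4 was -1.42 and that of Dppa2 -1.04, past the limit, which made 4 members. For Dppa4, against the 16 with Xist alone the change was -0.97, below the 2-fold limit. Leaving out the run of 28 8-cell control cells, which keeps 2 cells, gave -0.95 for Dppa4.

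**Figure D2:**
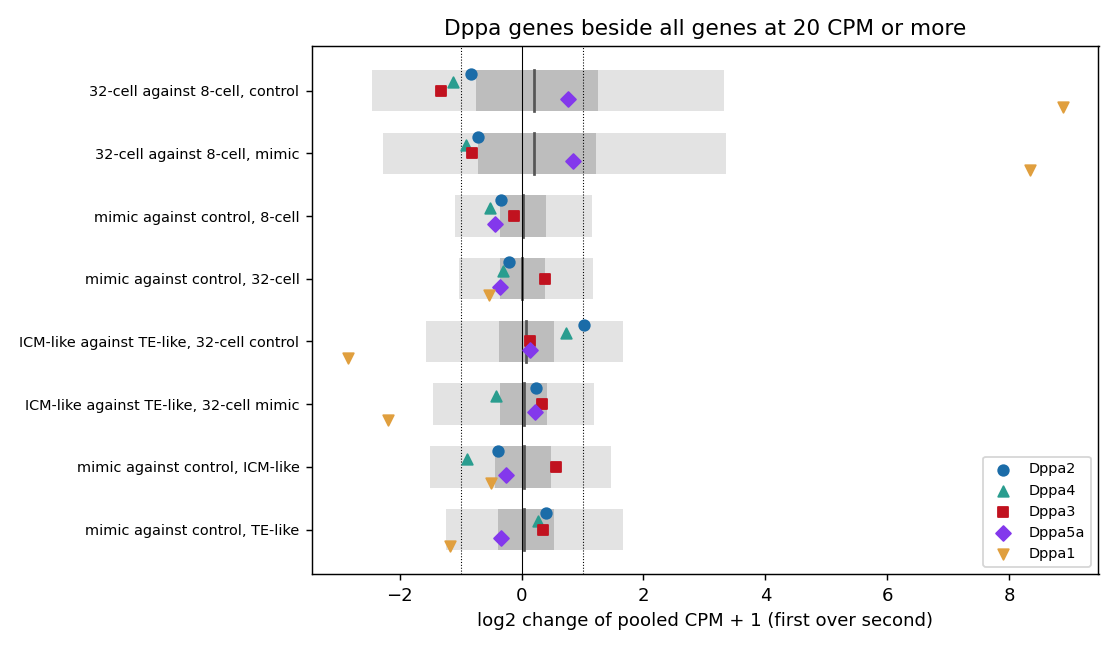
Log2 change of pooled CPM + 1 (horizontal axis) of each tested Dppa gene, by symbol, in the 8 comparisons (vertical axis); grey bars span the 5th to 95th (light) and 25th to 75th (dark) percentiles of all genes at 20 CPM or more, a grey tick their median, and dotted lines 2-fold. Dppa1 stands beyond the bars by stage (8.88 and 8.34) and by lineage class (-2.85 and -2.19), while most other symbols sit inside the light bars.

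The genes that DPPA2 and DPPA4 are known to activate at the 2-cell stage were at or near 0 in these cells. Of 16 listed genes of that program, 14 had a row and none reached 20 CPM in any group. Duxf3 and the 5 Zscan4 genes with a row (Zscan4b, Zscan4c, Zscan4d, Zscan4e and Zscan4f) were at or near 0 CPM throughout. The highest level was that of Usp17lb, a deubiquitinase-like gene, with 5.7 and 7.5 CPM in 8-cell control and mimic cells. Of 11 oocyte transcripts with a row, only Zp3, a coat protein of the egg, reached 20 CPM, at 66.7 CPM in 8-cell control and 17.2 in 8-cell mimic cells, and at 0.4 and 1.6 CPM at the 32-cell stage. Dppa3, which is also supplied by the oocyte, was still at 2286 and 2977 CPM there.

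The enzymes and readers of DNA methylation that work with or against DPPA3 included genes with higher and genes with lower levels at the 32-cell stage. In control embryos all 12 listed genes were at 20 CPM in 1 group or more, with 3 past 2-fold higher at the 32-cell stage and 1 lower, no more than the shares of all genes (30% and 20.1%). Tet2, which oxidises methylcytosine, had 57.5 CPM at the 8-cell and 727 at the 32-cell stage, Uhrf1 had 13.0 and 263, and Zfp57, which guards imprints, had 63.3 and 154.3. Trim28, a corepressor of such zinc finger proteins, was lower, with 707 and 303 CPM. In mimic embryos 3 of 11 were past the limit higher and 2 lower, beside 29.1% and 18.8% of all genes. Uhrf1 was at 19.3 and 83.5 CPM there.

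Pluripotency factors also lay on both sides. In control embryos 7 of 17 were past 2-fold higher at the 32-cell stage and 4 lower, and in mimic embryos 5 of 16 were higher and 6 lower, beside 30% and 20.1% of all genes in control and 29.1% and 18.8% in mimic embryos. Tfcp2l1 had 83.7 CPM in 8-cell and 1800 in 32-cell control cells, and Nanog had 100.4 and 391. Klf2 was lower, with 74.7 and 8.7 CPM, as was Zfp296, with 319 and 72.6. Dppa5a had the direction of Nanog and Tfcp2l1, within the limit, and Dppa3 and Dppa4 that of Klf2 and Zfp296.

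The second comparison asks how the Dppa genes differ between mimic and control embryos at each stage. At the 8-cell stage 0 of the 4 members with 20 CPM were past 2-fold, against 6.96% of 6570 genes higher and 6.09% lower. All 4 were lower with mimic: Dppa4 by 1.43-fold, Dppa5a by 1.36-fold, Dppa2 by 1.26-fold and Dppa3 by 1.09-fold. The direction turned for Dppa3 without the run of 28 control cells, which keeps 2 (log2 0.04), and in cells where Y-linked counts exceeded Xist (0.02), and for Dppa2 in cells with Xist alone (0.02). The members' median log2 change was -0.39, beside 0.03 over all genes. Single cells overlapped throughout. Of 24 mimic cells, 18 lay below the control median for Dppa4, 19 for Dppa5a, 15 for Dppa2 and 17 for Dppa3.

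These 8-cell differences varied with the Xist and Y-linked type of the cells. Control cells with Xist alone had 949 CPM of Dppa2 (16 cells) and those with Y-linked counts above Xist had 1232 (7 cells). In mimic cells the values were 960 (3 cells) and 710 (8 cells), in the reverse order. For Dppa4 they were 468 and 637 CPM in control cells and 388 and 372 in mimic cells. For Dppa5a they were 996 and 855 CPM in control cells and 485 and 604 in mimic cells, so that Dppa5a passed 2-fold lower with mimic among cells with Xist alone (log2 -1.04, 3 mimic cells). Dppa3 had 5872 and 5358 CPM in control cells and 5002 and 5432 in mimic cells, with the log2 change between -0.23 and 0.04 over all alternatives.

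At the 32-cell stage 0 of 5 members were past 2-fold, against 6.87% of 7307 genes higher and 5.36% lower. Dppa3 was 1.302-fold higher with mimic, and 30 of 39 mimic cells lay above the control median. The other 4 were lower: Dppa1 by 1.45-fold, Dppa5a by 1.28-fold, Dppa4 by 1.23-fold and Dppa2 by 1.15-fold. Control and mimic cells had unlike shares of the lineage classes described further on (64.1% and 30.8% ICM-like). The part of these shares in the differences was not tested. Without the run of 15 control cells the direction of Dppa2 turned (log2 0.02). The members' median log2 change was -0.30, beside 0.01 over all genes. For Dppa5a 34 of 39 mimic cells lay below the control median, for Dppa2 30 and for Dppa4 25, whereas for Dppa1 22 lay above it although its pooled level was lower.

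Runs of cell numbers within the 32-cell mimic group differed from each other by more CPM than the groups did for every member but Dppa4. The control runs of 24 and 15 cells had 1963 and 2768 CPM of Dppa3, and the mimic runs of 18, 12 and 9 cells had 2412, 3887 and 2712. The mimic run of 12 cells thus carried the highest Dppa3, and it held the 4 mimic cells with the highest values, 4789 to 7233 CPM. It was also the highest mimic run in Dppa5a, at 1550 CPM, beside 1009 and 1263 in the runs of 18 and 9 cells and 1582 and 1664 in the control runs. In Dppa1 it was the lowest run, at 169.5 CPM, beside 306 and 514 in the other mimic runs and 428 and 534 in the control runs. Dppa2 had 512 and 728 CPM in the control runs and 446, 589 and 540 in the mimic runs in the same order, and Dppa4 had 243 and 232 against 169.4, 211 and 204. Every mimic run was below both control runs for Dppa4 and Dppa5a, and for no other member. The share of all genes whose runs separate in this way was not determined.

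**Figure D3:**
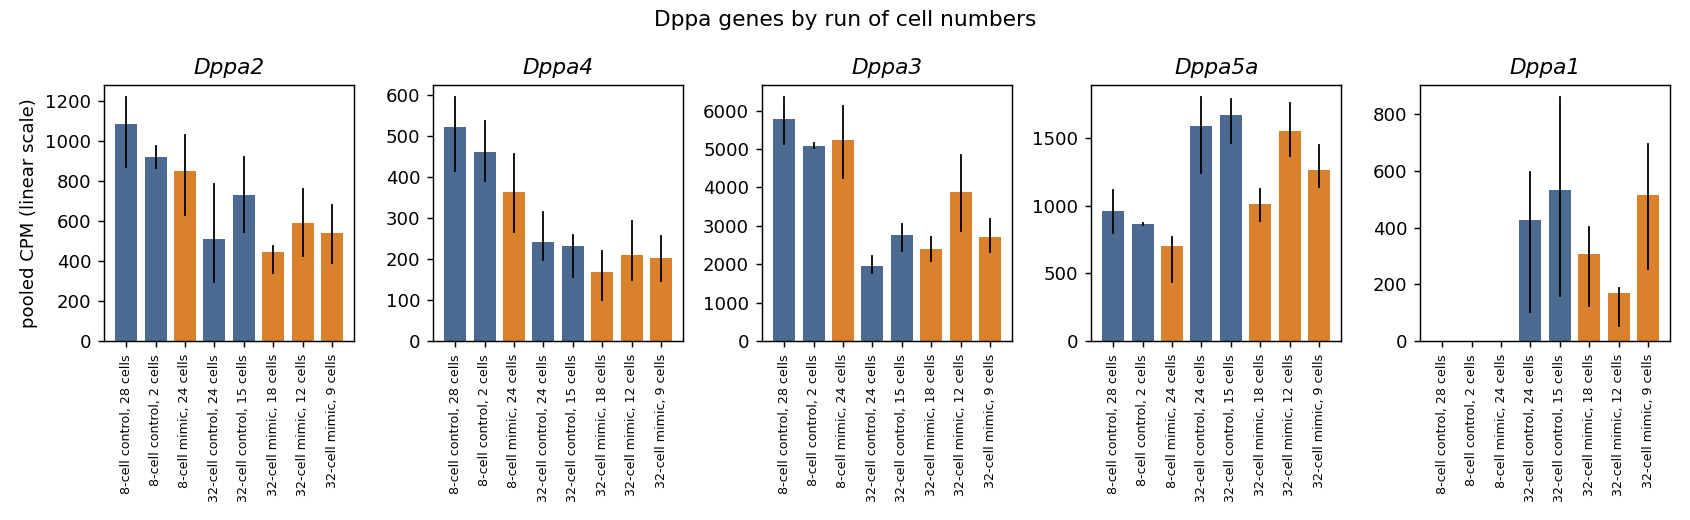
Pooled CPM (vertical axis, linear from 0) of each Dppa gene in the 8 runs of consecutive cell numbers (horizontal axis), control in blue and mimic in orange; black lines span the 25th to 75th percentile of the run's cells. For Dppa3 the 32-cell mimic run of 12 cells is the highest of the 32-cell runs (3887), and for Dppa1 it is the lowest (169.5).

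In the list of methylation enzymes and readers, 0 of 10 were past 2-fold higher with mimic at the 8-cell stage and 1 was lower. The shares of all genes were 6.96% and 6.09%. At the 32-cell stage 0 of 12 were higher and 4 lower, beside 6.87% and 5.36% of all genes. Uhrf1 had 263 CPM in control and 83.5 in mimic cells, Zfp57 had 154.3 and 65.2, and Dnmt1, the maintenance methyltransferase, had 72.3 and 35.6. Dppa3 was 1.302-fold higher in the mimic cells of the same stage, within the limit. Its log2 change of 0.38 was 0.10 without the run of 24 control cells and 0.15 without the run of 12 mimic cells. Whether Dppa3 and these genes are related was not tested. The list of pluripotency factors had 0 of 14 higher and 3 lower at the 8-cell stage. It had 0 of 16 higher and 4 lower at the 32-cell stage, beside the same shares of all genes at each stage. The 4 lower ones included Tdgf1, a Nodal coreceptor, with 249 and 11.9 CPM. Pou5f1 was within the limit, with 297 and 263 CPM.

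The third comparison places the members in the 2 lineages of the 32-cell embryo. Cells were clustered on all genes but the members and mitochondrial genes, and the 2 clusters of 32-cell cells were named from 9 ICM and 9 TE markers. All 9 ICM markers were higher in 1 cluster and all 9 TE markers in the other. These markers were among the genes clustered. The Y-linked gene Uty was among the 10 leading genes of the cluster named ICM-like. The ICM-like class held 25 of 39 control and 12 of 39 mimic cells (64.1% and 30.8%), and the TE-like class the other 14 and 27. With exact binomial intervals of 47.2 to 78.8 and 17.02 to 47.6, which cover counting error only and not the embryos that cells share, these shares describe the cells measured. The labels give no lineage, 2 of the ICM markers and 0 of the TE markers were among the 10 leading genes of their cluster, and a class made from a marker score held 17 in place of 12 ICM-like mimic cells. The genes that formed the classes covary with the members, so the differences between classes are descriptions.

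The study assigned lineages to its mouse embryo cells and lists Dppa1 among the markers it checked them by. Dppa1 had the largest difference between the classes of the 5 members. In control embryos its CPM ranged from 0 to 287 (median 148.3) in ICM-like cells and from 419 to 1877 (median 846) in TE-like cells, and the classes did not overlap. Its pooled level was 128 CPM in the former and 928 in the latter, 7.26-fold apart. With mimic the ranges were 0 to 256 (median 95.2) and 31.9 to 1283 (median 369) and overlapped, and the pooled levels, 89.8 and 412 CPM, were 4.59-fold apart. No ICM-like mimic cell reached the TE-like median. The share of all genes whose control cells do not overlap between the classes was not determined.

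Dppa2 and Dppa4 leaned to the other class in control embryos. Dppa2 ranged from 281 to 1191 CPM (median 777) in ICM-like and from 151.7 to 667 (median 354) in TE-like control cells, and 15 of 25 ICM-like cells were above all TE-like cells. Its pooled level of 765 CPM was 2.04-fold that of TE-like cells (376), at the edge of the 2-fold limit. Its log2 change of 1.02 was 0.96 with median-of-ratios size factors, 0.76 without the run of 24 cells and 1.37 without the run of 15. Dppa4 ranged from 129.9 to 506 (median 286) and from 88.02 to 235 (median 181), with 16 of 25 ICM-like cells above all TE-like cells and a pooled level 1.67-fold higher, 288 against 172.5 CPM.

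In mimic cells the classes were closer for Dppa2 and in the other order for Dppa4. Dppa2 ranged from 120.7 to 1077 CPM (median 499.6) in ICM-like and from 250 to 968 (median 449) in TE-like mimic cells, with pooled levels of 587 and 495. Dppa4 ranged from 70.2 to 328 (median 144.98) and from 66.4 to 393 (median 202), and its pooled level of 154.4 CPM in ICM-like cells was 1.34-fold lower than the 208 in TE-like cells. This log2 change of -0.42 was -0.13 where the marker score set the classes and -0.25 where only odd-ranked genes were clustered. Whether the class difference itself differed between treatments was not tested.

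Dppa3 and Dppa5a differed by 1.26-fold at most between the pooled classes. Dppa3 ranged from 1538 to 4137 CPM in ICM-like and from 1154 to 4036 in TE-like control cells, with pooled levels of 2376 and 2166. In mimic cells it ranged from 1883 to 7233 and from 1376 to 5027, with 3509 and 2777 CPM pooled. This difference (log2 0.34) was -0.03 without the run of 12 mimic cells and 0.49 without the run of 18. Dppa5a had 1681 and 1528 CPM in control cells and 1401 and 1205 in mimic cells of the ICM-like and TE-like classes.

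Counted against the 2-fold limit, 2 of 5 members were past it in control cells, Dppa2 higher and Dppa1 lower in the ICM-like class, where 11.9% of 7239 genes were higher and 10.1% lower. In mimic cells 1 of 5 was, Dppa1, against 7.31% of 7426 genes higher and 9.29% lower. The median log2 change of the members was 0.14 in control and 0.22 in mimic cells, beside 0.07 and 0.05 over all genes. Of the pluripotency factors that were not among the ICM markers, 4 of 13 were past 2-fold higher in ICM-like control cells and 1 of 12 in ICM-like mimic cells, with 0 lower in both. Esrrb, past the limit in control cells, had 70.3 CPM in the ICM-like and 7.1 in the TE-like control class.

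**Figure D4:**
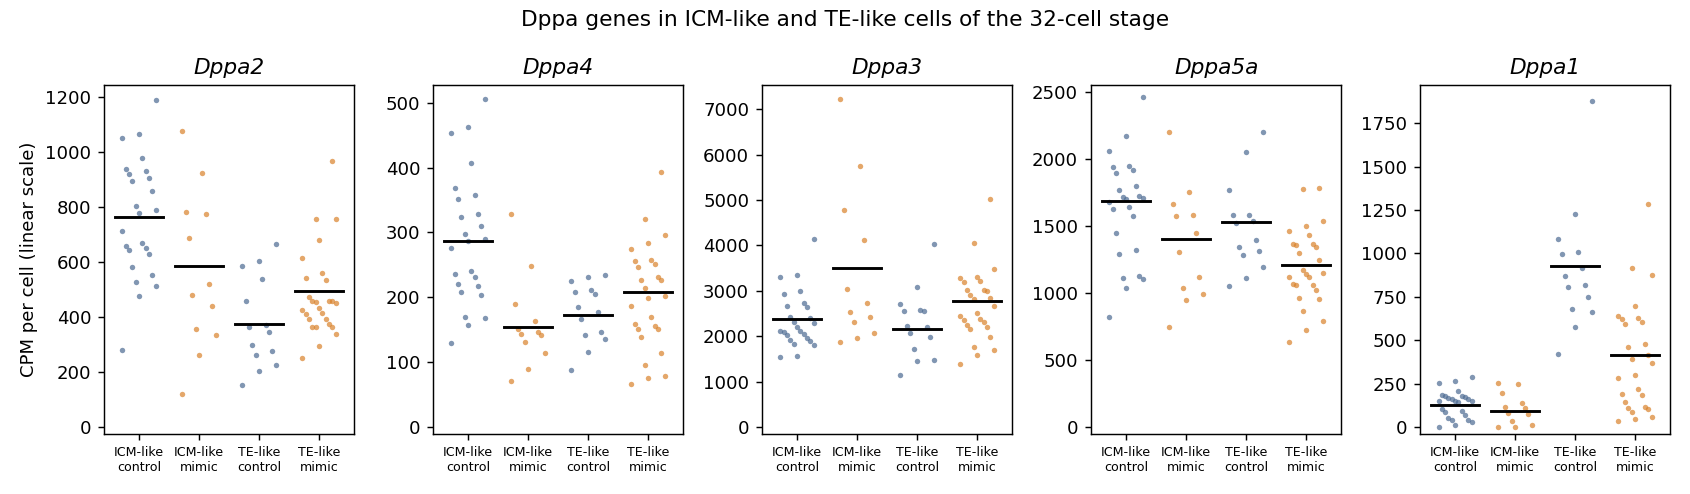
CPM of each Dppa gene (vertical axis, linear) in the ICM-like and TE-like cells of 32-cell control (blue) and mimic (orange) embryos (horizontal axis); each point is a cell and each black line is the class's pooled CPM. Dppa1 of TE-like control cells (419 to 1877) lies above that of ICM-like control cells (0 to 287), and Dppa3 and Dppa5a overlap in all 4 sets.

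Within the ICM-like class, 0 of 5 members were past 2-fold between mimic and control, against 10.4% of 7378 genes higher and 9.98% lower with mimic. Dppa4 came nearest, 1.86-fold lower with mimic, and 11 of 12 mimic cells lay below the control median. Dppa3 was 1.48-fold higher, Dppa1 1.42-fold, Dppa2 1.305-fold and Dppa5a 1.20-fold lower. Without the run of 18 mimic cells the log2 change of Dppa5a was 0.001. The Dppa3 value rested on the run of 12 mimic cells, without which its log2 change was 0.07 in place of 0.56. Within the TE-like class 1 of 5 members was past the limit, against 12% of 7354 genes higher and 7.64% lower. This was Dppa1, 2.25-fold lower with mimic, with 16 of 27 mimic cells below all 14 control cells and 1 control cell above all mimic cells. It was within the limit without the run of 12 mimic cells (log2 -0.89) and with classes by marker score (log2 -0.945). Dppa2, Dppa3 and Dppa4 were 1.32-fold, 1.28-fold and 1.20-fold higher there, and Dppa5a was 1.27-fold lower. These values varied with the runs: the log2 change of Dppa2, 0.40, was -0.09 without the run of 24 control cells and 0.91 without the run of 15, and that of Dppa3, 0.36, was 0.06 and 0.63. TE markers also differed between these cells: 3 of 9 were past 2-fold lower in TE-like mimic than in TE-like control cells and 0 higher. Tspan8 had 395 CPM in control and 92.2 in mimic cells, and Elf3 had 756 and 362. The members' median log2 change with mimic was -0.38 in the ICM-like class and 0.27 in the TE-like class, beside 0.03 and 0.05 over all genes. The comparisons by class share their cells with the comparisons of whole groups.

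A marker score placed the cells on a scale in place of 2 classes. It was the mean standardised level of the ICM markers less that of the TE markers. Over the 39 control cells, the Pearson correlation of the score with log2(CPM + 1) was -0.76 for Dppa1 and 0.77 for Dppa2, and 0.46, 0.28 and 0.20 for Dppa4, Dppa5a and Dppa3. Over the 39 mimic cells it was -0.68 for Dppa1, 0.12 for Dppa2 (Spearman 0.25), -0.13 for Dppa4, 0.10 for Dppa5a and 0.20 for Dppa3, and the difference between treatments was not tested. The correlation of Dppa1 with Dppa4 was -0.51 in control and 0.04 in mimic cells, and with Dppa2 -0.44 and -0.15. Within ICM-like and within TE-like control cells the correlation of Dppa1 with Dppa2 was 0.21 and 0.04, so the negative value over all control cells lay between the classes. Within TE-like mimic cells (27) the correlation of Dppa1 was -0.41 with Dppa2, -0.35 with Dppa4 and -0.48 with Dppa3, and within ICM-like mimic cells (12) it was 0.02, 0.21 and 0.22. The control cells fell into 2 separate sets of scores, and their correlations describe the distance between those sets.

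**Figure D5:**
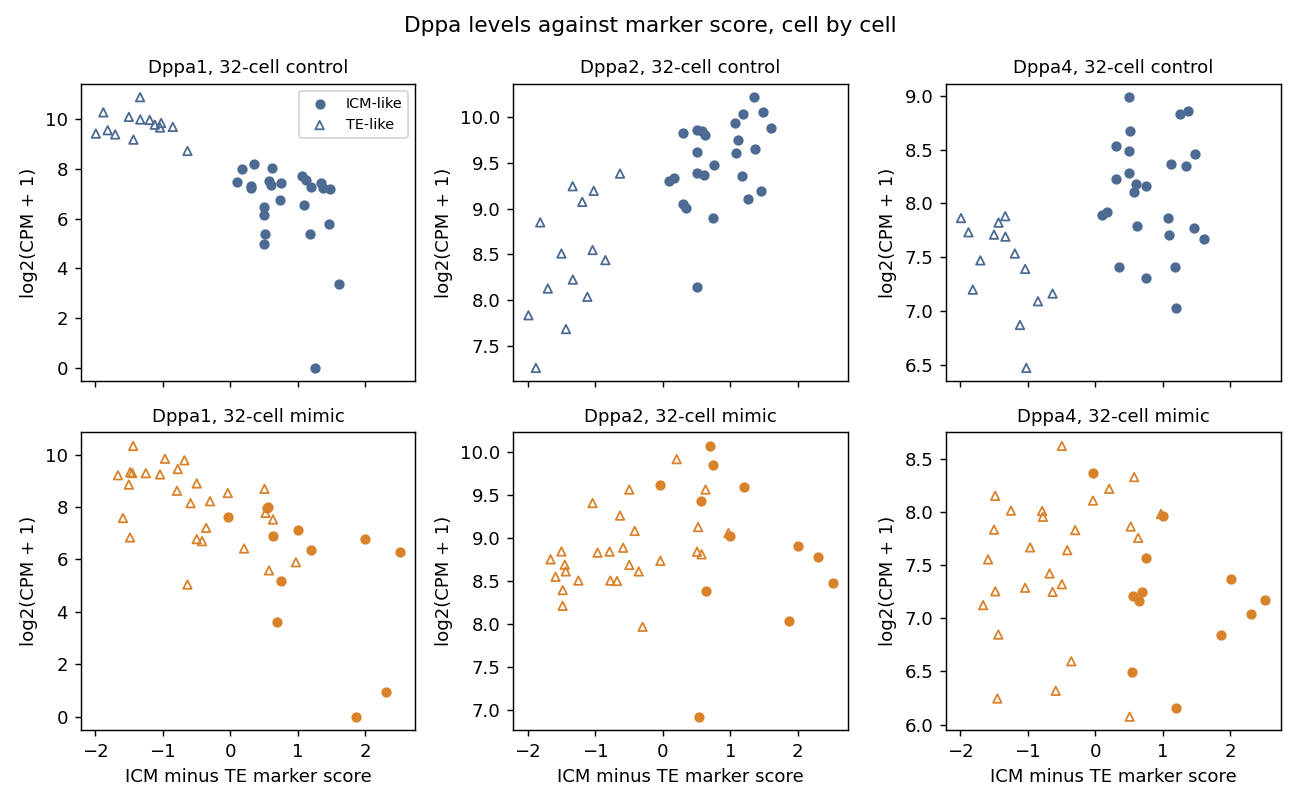
Level of Dppa1, Dppa2 and Dppa4 as log2(CPM + 1) (vertical axis) against the ICM minus TE marker score (horizontal axis, mean standardised units) in each 32-cell control (upper row) and mimic (lower row) cell; filled circles are ICM-like and open triangles TE-like cells. Control cells form 2 separate sets with high Dppa1 and low Dppa2 at negative scores (r of -0.76 and 0.77), while for Dppa2 of mimic cells r is 0.12.

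The genes most like Dppa1 across the 32-cell cells included keratins of the trophectoderm. The search over these 78 cells covered 8060 genes at 20 CPM in any group, and that over all 132 cells covered 8081. The 5 with the highest Pearson correlation over the 78 cells were Krt8 (0.75), Ptges (0.74), Gm2a (0.72), Ap2a2 (0.72) and Krt18 (0.68). Krt8 and Krt18, the keratins of the outer layer, are also TE markers used to name the classes. Over all 132 cells the list was Akr1b8 (0.91), Bmyc, Enpep, Klf6 and Ptges (0.89 each), genes with 0.03 to 7.7 CPM in the 8-cell groups and 117.5 to 640 in the 32-cell groups.

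The other members had weaker neighbours. Over the 32-cell cells, Dppa2 was most like Pttg1, the securin gene (0.62), Spry2, a brake on receptor signalling (0.56), and Esrrb, a pluripotency factor (0.54), followed by Rnf130 and Sgms1. Dppa4 was most like Morf4l1 (0.51) and Cpeb2 (0.49), followed by Oaz1, Pgk1 and Uros. Dppa3 was most like Rpl24, Cks2 (0.57 each), Rps27l (0.54), Rps24 and Rpl6 (0.52 each), 4 of them ribosomal protein genes or relatives. Dppa5a was most like Rps25, Cox7c (0.68 each), Atp5j, Eif2s2 (0.65 each) and Pigp (0.63). Pigp is the gene that shares stretches of its transcript with Dppa5a.

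Over all 132 cells the stage difference entered these likenesses. Dppa3 was most like Sugt1, Rpl41 (0.82 each), Trim43b (0.81), Impdh2 and Cks2 (0.79 each), genes higher at the 8-cell stage in both treatments. Dppa2 was most like Dnajc15 (0.64), Eif6 (0.62), Set, Dppa3 (0.61 each) and Spic (0.60), and Dppa4 like Cnbp, Obox8, Fcgr3 (0.66 each), Exoc3l2 (0.65) and Set (0.64). Set, a histone chaperone gene, was the only gene in the lists of both partners of the chromatin pair. Obox8, an oocyte-type homeobox gene, had 275 and 123 CPM in 8-cell control and mimic cells and was at 0 in both 32-cell groups. Dppa5a was most like Actb (0.67), Atp5j (0.65), Hspe1 (0.64), Glrx (0.63) and Enpep (0.62).

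Dppa1 was the 1 member of 5 with an entry in the RefSeq promoter table, and its promoter is shown because the gene had no counts at the 8-cell stage and its highest counts in TE-like cells. The 250 bases before its start (GRCm38.p6, chr11:46629275-46629524, minus strand) are printed 5′ to 3′, with capitals for matches of the motifs named after them.
Dppa1 promoter: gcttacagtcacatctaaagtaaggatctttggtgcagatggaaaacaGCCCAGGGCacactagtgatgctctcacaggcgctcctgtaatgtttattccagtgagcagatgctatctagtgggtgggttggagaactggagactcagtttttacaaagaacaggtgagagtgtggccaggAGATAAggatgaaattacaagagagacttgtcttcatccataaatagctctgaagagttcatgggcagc
Both strands were searched for 4 motifs of factors known in these lineages, chosen with the data known. The GATA motif AGATAA had 1 match, and 9.99% of 32851 promoters of the same length hold it. The TFAP2 motif GCCNNNGGC, which reads the same on both strands, also had 1 match (13.7% of promoters). The TEAD motif GGAATG (12.6% of promoters) and the POU motif ATGCAAAT (1.601%) had none. The matches did not overlap. A match is a description of letters in this window, not a binding site.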

How the data were processed

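Members and lists were chosen with earlier results of these data known. The authors aligned reads to the mouse genome (mm10, GRCm38) with STAR 2.5.1b and deposited expected counts per gene from RSEM 1.3.0 in 1 table, all of them whole numbers. Counts were used as deposited. The study's filter (3000 genes with a count, under 10% mitochondrial counts) removed 0 of 132 cells. Pooled CPM with exact Poisson and shares with Clopper-Pearson 95% intervals were computed in Python 3.11.15 with SciPy 1.17.1, and changes as the difference of log2(CPM + 1). Each group is 1 sample, so no test was run. Classes came from Seurat 5.3.0 in R 4.3.3 (2000 variable genes, 25 principal components, resolution 0.6). Like genes were the 5 with the highest correlation to each member, and list examples were led by the largest differences. The step that computes group levels and log2 changes was tested on simulated counts. Transcripts and coordinates came from GENCODE M21, a release that may differ from the one used for counting. No doublet caller was run on these hand-picked cells. The alternatives were another total, size factors, weighting, scale, pseudocount, minimum level, thinning to 500000 counts, left-out runs, cells of 1 Xist type and other classes.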

Additional observations from a re-analysis of the deposited data

How the results depend on the processing

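No member's difference that was past 2-fold turned its direction under any alternative. Of 523 recomputed differences of members, 7 turned direction, all of them within the limit and given beside their results. Of the recomputed counts of members past 2-fold, 96 stayed within 1.5 times the reported count and 11 did not. By stage in mimic embryos the count was 1, and it was 2 without the run of 18 mimic cells, 2 without the run of 12 mimic cells, 3 with 8-cell cells that had Xist alone and 2 with those that had Y-linked counts above Xist. Between classes in control cells the count was 2, and it was 1 with the mean of the cells' own CPM, with median-of-ratios size factors, with cells thinned to equal counts and without the run of 24 control cells, as Dppa2 was at the limit. In TE-like cells the count between treatments was 1, and it was 0 without the run of 12 mimic cells and with classes by marker score. At the 8-cell stage it was 0 between treatments, and 1 with cells that had Xist alone (3 mimic cells). Beyond the cells or scaling that each alternative changes, the cause was not tested. The fold of Dppa1 by stage is set by the limit of a count of 0 and the log2 change by the pseudocount: a pseudocount of 5 CPM gave 6.57 (control) and 6.04 (mimic). No paired analysis was possible because the labels tie no cell to an embryo and no test was run. The smallest count above 0 of a member in a group or class was 1308, so counting error is a small part of these values.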
